A study of Mus musculus with 6 samples.

Results

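Cytokine receptors decide which growth factors a blood cell can answer. The genes described here are 10 such receptors of mouse leukemia cells: Il7r, Il2rg, Csf1r, Csf2ra, Csf2rb, Csf2rb2, Csf3r, Il3ra, Flt3 and Kit. They were chosen by name from the 23337 genes of the deposited count table, and all 10 were found there. Of these, 9 passed the filter on low counts, as did 12174 genes in all, and Flt3 did not. The libraries hold polyadenylated RNA of leukemia that the labels call primary neonatal murine leukemia and that the series title describes as MLL-rearranged, so the rearranged leukemia is common to both groups. The 3 ccl5 libraries are labelled as treated with Ccl5, a chemokine, and the 3 control libraries as kept under control conditions. ccl5 replicate 1 (source neo30ccl5) is labelled a tertiary transplant, and ccl5 replicates 2 and 3 (source neo10ccl5) and control replicate 3 (source neo10ctrl) a primary transplant. No transplant is labelled for control replicate 1 (source neo_control) or control replicate 2 (source negative), and the labels used here give no strain, age, dose, duration or number of animals. Whether each library came from its own animal or culture is not labelled, and p-values therefore measure the spread between these libraries, which may be technical.

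As background, the receptors fall into 2 classes. Il7r, Il2rg, Csf2ra, Csf2rb, Csf2rb2, Csf3r and Il3ra encode receptors without a kinase of their own, which signal through bound JAK kinases to STAT factors. Csf1r, Flt3 and Kit encode receptor tyrosine kinases, which phosphorylate themselves and their adaptors when the ligand binds. Il7r with Il2rg forms the interleukin 7 receptor of lymphoid precursors, a receptor also found on fetal monocyte precursors. Csf3r serves neutrophils, Csf1r monocytes and macrophages, and Kit and Flt3 early progenitors.

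The libraries held 13421100 to 18445095 counts each, and 3 counts, the level taken as the floor of detection, correspond to 0.16 to 0.273 CPM (CPM is a library's counts scaled to a common total, here with TMM). Libraries did not fall together by label. Over all tested genes the Pearson correlation of log2 CPM was 0.993 between ccl5 replicates 1 and 3, 0.995 between ccl5 replicate 2 and control replicate 3, and 0.995 between control replicates 1 and 2, while the other 12 pairs lay between 0.826 and 0.887. These correlations describe pairs of libraries across genes, which are not independent replicates. Each close pair still differed by more than counting noise, with a mean chi-square per gene of 3.55 to 7.27 where counting alone gives about 1. Reads of 4 Y-linked genes were absent from ccl5 replicates 1 and 3 and numbered 5103 to 7777 in the other libraries. ccl5 replicate 2 thus lay nearer to a control library than to the libraries of its own label. Results below are given with that library left out where this changes a call. It was singled out after this likeness was seen, and without it 26.2% of all genes were called. The remaining ccl5 libraries then lack Y-linked reads and all controls hold them, so label and this split cannot be told apart. Calls without ccl5 replicate 2 are therefore a description and no support for an effect of Ccl5. Leaving out control replicate 3 keeps as controls only replicates 1 and 2, themselves a close pair (correlation 0.995). Calls without control replicate 3 are likewise a description and no support for such an effect. Whether the labels of these libraries are right was not tested, and every difference between the groups rests on them.

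Promoter windows of the receptors whose levels differed most in layout across the libraries are shown first. They run from 250 bases before the gene's start to the base before it, 5′ to 3′ on the gene's strand, and come from RefSeq's GRCm38.p6 table, the same assembly as the mm10 build of the count table. The table matched 8 of the 10 receptors by symbol, all but Csf1r and Csf2rb. Capitals mark matches, on either strand, to 5 short motifs known for blood cell factors. The PU.1 motif was searched as GAGGAA and that of C/EBP factors as TTGCNNAA. For RUNX factors the letters were TGTGGT. For GATA factors they were AGATAA, and for MYB they were TAACNG. No motif contains another.
Il7r (chr15:9529877-9530126, minus strand): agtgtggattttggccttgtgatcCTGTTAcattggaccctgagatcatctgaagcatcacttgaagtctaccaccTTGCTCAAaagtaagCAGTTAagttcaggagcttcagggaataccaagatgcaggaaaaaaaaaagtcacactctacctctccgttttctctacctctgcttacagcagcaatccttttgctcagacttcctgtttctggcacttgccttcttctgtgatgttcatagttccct
Csf3r (chr4:126024409-126024658, plus strand): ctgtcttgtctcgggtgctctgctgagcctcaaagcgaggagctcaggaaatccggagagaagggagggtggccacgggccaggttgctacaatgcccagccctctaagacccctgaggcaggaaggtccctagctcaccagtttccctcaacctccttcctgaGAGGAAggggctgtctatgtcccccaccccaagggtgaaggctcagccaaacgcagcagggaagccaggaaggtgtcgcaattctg
Csf2ra (chr19:61228419-61228668, minus strand): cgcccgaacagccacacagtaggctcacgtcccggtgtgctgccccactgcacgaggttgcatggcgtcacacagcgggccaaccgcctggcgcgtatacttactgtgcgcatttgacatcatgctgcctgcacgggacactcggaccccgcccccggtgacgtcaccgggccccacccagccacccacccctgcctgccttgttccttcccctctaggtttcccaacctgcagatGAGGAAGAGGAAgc
Kit (chr5:75574737-75574986, plus strand): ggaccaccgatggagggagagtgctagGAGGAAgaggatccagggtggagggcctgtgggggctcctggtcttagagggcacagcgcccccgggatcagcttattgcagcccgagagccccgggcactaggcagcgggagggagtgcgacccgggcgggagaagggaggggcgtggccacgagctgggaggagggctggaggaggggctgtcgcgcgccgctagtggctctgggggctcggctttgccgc
The PU.1 letters stand in the windows of Csf3r, Kit and Csf2rb2 once each and in that of Csf2ra 2 times in a row, directly before the start. They are found in 23.1% of the 27018 promoters of the same length in the table. The Il7r window holds the C/EBP letters as TTGCTCAA, 174 bases before the start, and so does the Il3ra window, 134 bases before it, against 9.56% of all windows with a match to that motif. The Il7r window also holds the MYB letters 2 times (19.8% of all windows). The Flt3 window holds none of the 5 motifs. A match describes the letters in the window and nothing about binding.

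The groups were compared by label, as receptor levels in the libraries labelled ccl5 and those labelled control. Most receptor genes had a higher fitted level in the ccl5 group, led by Il7r, Csf1r and Csf3r, while Csf2ra, the GM-CSF-specific chain, had its 3 lowest libraries in the ccl5 group. None of the 9 tested receptors was called (edgeR's quasi-likelihood test, adjusted p under 0.05), a count of 0 that compares with 0 of 12174 genes (0%) called in all. The smallest adjusted p of any gene in that edgeR test was 0.365. The lack of a call does not show that levels were equal. At an unadjusted p under 0.05 there were 2 receptors, Csf1r higher (8.99% of all tested genes were) and Csf2ra lower (4.67%), against 13.7% in both directions. DESeq2 called 1 receptor, Flt3, against 1.07% of the 18580 genes with a count. Kit got no adjusted p in DESeq2 and could not be called, but is counted in that total. With limma-voom and quality weights 7 receptors were called, against 66.5% of all tested genes. The groups did not overlap for 1 receptor, Csf2ra, against 15.8% of all genes (7.49% on its lower side). Of the 9 receptors 8 had a log2 fold change above 0, with a median of 0.50, against 49% of all tested genes and a median of -0.01. These shares describe the receptors beside all genes, and no test was made of the set.

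**Figure D1:**
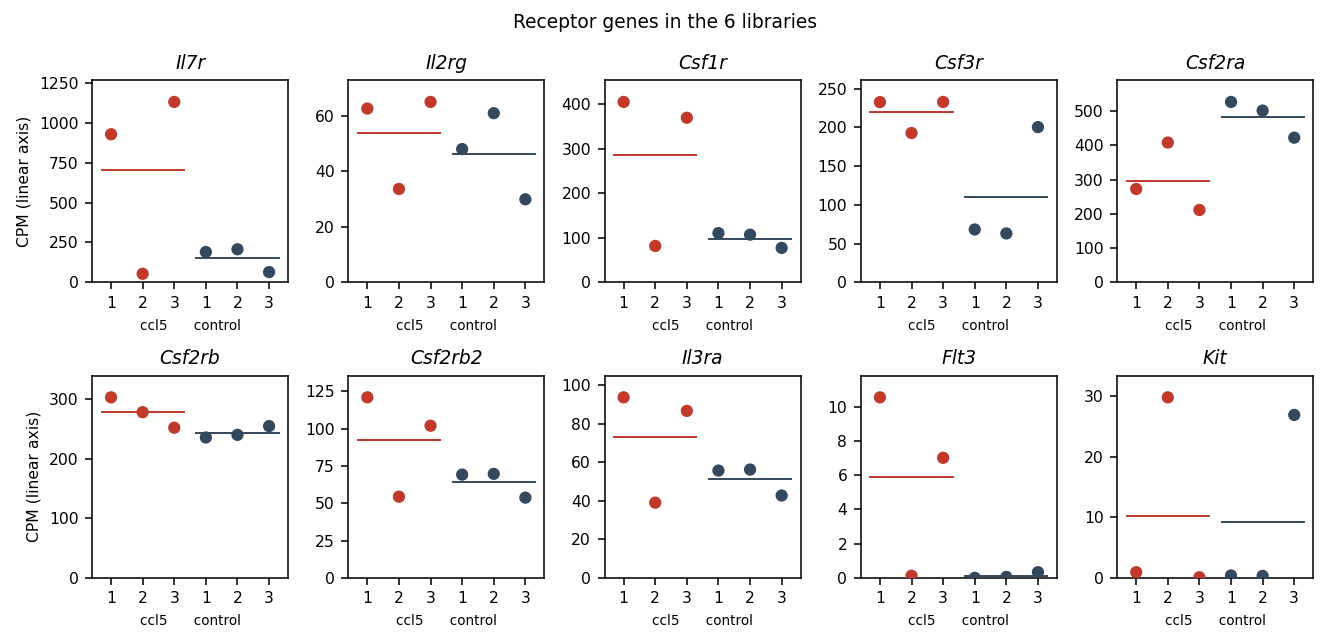
CPM of each of the 10 receptor genes (vertical axis, linear, from 0) in ccl5 replicates 1 to 3 (red) and control replicates 1 to 3 (dark blue), with a line at each group's mean. Il7r and Csf1r are high in ccl5 replicates 1 and 3, Kit is high in ccl5 replicate 2 and control replicate 3, and only Csf2ra has groups that do not overlap.

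Il7r encodes the alpha chain of the interleukin 7 receptor and lies on chromosome 15 (9506159 to 9529876, mm10, minus strand). Its raw counts were 13026, 883 and 12416 across ccl5 replicates 1 to 3, compared with 3005, 3890 and 1175 across control replicates 1 to 3. Scaled to library size these are 928, 53.9 and 1130 CPM, compared with 191, 207 and 64.6 CPM, and the group means were 704 ± 572 and 154 ± 78.0 CPM (SD, n = 3 each). The groups overlapped, since ccl5 replicate 2 was the lowest library of all, and the highest library exceeded it 21.0-fold. The log2 fold change was 2.19 (SE 1.06), and its adjusted p in edgeR was 0.40. Without ccl5 replicate 2 it was 2.74 (SE 0.52) and passed in edgeR (adjusted p = 0.0218), as 26.2% of all genes did in that fit. Among the 4 libraries with Y-linked reads, where ccl5 replicate 2 is the lone treated library and its spread is assumed equal to that of the controls, the direction turned to -1.52 (SE 0.82, edgeR adjusted p = 0.767). The difference between the groups thus lay in ccl5 replicates 1 and 3, the libraries without Y-linked reads.

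Il7r is a defining receptor of lymphoid cells, so lymphoid markers are given beside it. The summed level of 10 T cell markers was 2.07 to 3.48 CPM in the ccl5 libraries and 1.81 to 3.96 CPM in controls, and Cd3e, Cd3g, Cd4 and Zap70 had at most 3 counts in any library. The summed level of 10 B cell markers was 49.9, 14.7 and 46.0 CPM under Ccl5, compared with 14.3, 17.0 and 15.5 CPM under control conditions. Most of that rested on Cd79b and Blnk, an adaptor of B cells that myeloid cells also express, and Pax5, Ebf1 and Ms4a1 had at most 2 counts while Rag1 was at 0 in all 6. Blnk was laid out like Il7r in the ccl5 libraries, at 34.3, 2.69 and 33.1 CPM, but was at most 3.14 CPM in controls. Of the 8 natural killer and innate lymphoid markers none exceeded 0.427 CPM in any library. In bulk RNA a smaller number of cells of a type and less RNA per cell cannot be told apart, here and in all results below.

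Il2rg encodes the common gamma chain, which pairs with Il7r and with the receptors of several other interleukins, and lies on the X chromosome (101264387 to 101268206). It measured 62.6, 33.7 and 65.0 CPM across ccl5 replicates 1 to 3, compared with 48.0, 60.9 and 29.9 CPM across control replicates 1 to 3. It was lowest in ccl5 replicate 2 and control replicate 3, and the groups overlapped widely. Its log2 fold change was 0.22 (SE 0.36, edgeR adjusted p = 0.807), and it turned to -0.01 without control replicate 3. Levels of different genes were compared only per length, as RPKM (CPM divided by the gene length in kilobases). The ratio of Il7r to Il2rg in RPKM was 7.44, 0.805 and 8.73 across ccl5 replicates 1 to 3, compared with 1.99, 1.71 and 1.08 across control replicates 1 to 3. The alpha chain's RNA therefore exceeded that of its partner in every library but ccl5 replicate 2.

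Csf1r encodes the M-CSF receptor, the tyrosine kinase of monocytes and macrophages, on chromosome 18 (61105572 to 61131139). It measured 406, 82.0 and 370 CPM under Ccl5, compared with 111, 107 and 77.6 CPM under control conditions. ccl5 replicates 1 and 3 stood above all controls, and ccl5 replicate 2 stood between control replicate 3 and the other controls. The log2 fold change was 1.54 (SE 0.59), with an edgeR adjusted p of 0.365 and an unadjusted p of 0.0406. Without ccl5 replicate 2 it was 1.98 (SE 0.19, edgeR adjusted p = 0.00467), in the fit where 26.2% of all genes were called. In the subset with Y-linked reads it was -0.27 (SE 0.28). Beside it, the summed level of 10 monocyte and macrophage markers was 3885, 2658 and 3917 CPM under Ccl5, compared with 3356, 3426 and 2799 CPM under control conditions. The highest of them, Ly6c2, a marker of classical monocytes, measured 121, 1213 and 107 CPM, compared with 1500, 1521 and 1278 CPM. The part of these markers in the Csf1r difference was not tested.

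Csf3r encodes the G-CSF receptor, which drives neutrophil production, on chromosome 4 (126024659 to 126044975). It measured 233, 193 and 233 CPM under Ccl5, compared with 68.3, 63.2 and 200.3 CPM under control conditions. Control replicates 1 and 2 were the low libraries, and control replicate 3 lay just above ccl5 replicate 2, so the groups overlapped at that point alone. The log2 fold change was 0.99 (SE 0.48, edgeR adjusted p = 0.403). Without control replicate 3 it was 1.75 (SE 0.17) and passed in edgeR (adjusted p = 0.0309), as 1.88% of all genes did in that fit. No other receptor was called there. The controls left are then the close pair of control replicates 1 and 2, so this call is a description. Restricted to the 3 libraries labelled primary transplants (1 of them a control), the log2 fold change of Csf3r was 0.07 (SE 0.61). Neutrophil markers were laid out differently, with a summed level of 511, 12778 and 569 CPM under Ccl5, compared with 879, 920.2 and 12379 CPM under control conditions. Elane, the neutrophil elastase gene, measured 24.8, 4548 and 12.8 CPM, compared with 220, 226 and 4360 CPM. Mmp8, a neutrophil collagenase, differed from the rest of the list and was laid out more like Csf3r, at 465, 250 and 533 CPM, compared with 44.1, 35.6 and 286 CPM, and it made up most of the sum in ccl5 replicates 1 and 3. The part of these markers in the Csf3r levels was not tested.

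The receptors for GM-CSF and interleukin 3 share their signalling chains. Csf2ra encodes the GM-CSF-specific alpha chain, on chromosome 19 (61224402 to 61228418). It measured 273, 408 and 211 CPM across ccl5 replicates 1 to 3, compared with 527, 502 and 423 CPM across control replicates 1 to 3. Each ccl5 library was below each control library, with ccl5 replicate 2 and control replicate 3 the nearest to each other. The log2 fold change was -0.70 (SE 0.28), with an edgeR adjusted p of 0.365 and an unadjusted p of 0.0469. It stayed below 0 in each of the 15 alternatives, from -1.06 with limma-voom to -0.25 in the subset with Y-linked reads. Of these, the threshold of 0.1 reuses the main fit, and changes of scaling or filter refit the same 6 libraries. Without ccl5 replicate 2 it passed in edgeR (-0.99, SE 0.18, adjusted p = 0.0211), as 26.2% of all genes did in that fit. Csf2ra was the receptor with the lowest fitted change and the only tested one whose fold change was below 0.

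Il3ra encodes the interleukin 3-specific alpha chain, on chromosome 14 (14346495 to 14355490), and differed from Csf2ra in layout. It measured 93.6, 39.0 and 86.6 CPM under Ccl5, compared with 55.6, 56.1 and 42.7 CPM under control conditions. ccl5 replicates 1 and 3 were the highest and ccl5 replicate 2 the lowest. The log2 fold change was 0.50 (SE 0.35, edgeR adjusted p = 0.53). Without ccl5 replicate 2 it was 0.81 (SE 0.16, edgeR adjusted p = 0.0237), in the fit where 26.2% of all genes were called. In the subset with Y-linked reads it was -0.40. Per length, Il3ra stood at 0.455, 0.127 and 0.543 of Csf2ra in ccl5 replicates 1 to 3 and at 0.14, 0.148 and 0.134 in control replicates 1 to 3. Only ccl5 replicates 1 and 3 thus had Il3ra at more than a small part of the Csf2ra level.

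Csf2rb encodes the beta chain shared by the GM-CSF, interleukin 3 and interleukin 5 receptors, on chromosome 15 (78325990 to 78351001). It measured 303, 278 and 252 CPM under Ccl5, compared with 236, 240.2 and 255 CPM under control conditions, the steadiest of the 10 receptors, with a highest library 1.29-fold above the lowest. Its log2 fold change was 0.19 (SE 0.15, edgeR adjusted p = 0.582). Csf2rb2 is its neighbour on the same chromosome (78282510 to 78305603, opposite strand) and encodes a beta chain that in mice serves interleukin 3 only. It measured 121, 54.4 and 102 CPM under Ccl5, compared with 69.2, 69.7 and 53.8 CPM under control conditions, with ccl5 replicates 1 and 3 above all others. Its log2 fold change was 0.53 (SE 0.32, edgeR adjusted p = 0.476), and it was -0.24 in the subset with Y-linked reads. Without ccl5 replicate 2 it was called at 0.80 (SE 0.17, edgeR adjusted p = 0.0272), as 26.2% of all genes were in that fit. The ratio of Csf2rb2 to Csf2rb in RPKM was 0.412, 0.202 and 0.417 across ccl5 replicates 1 to 3, compared with 0.303, 0.299 and 0.218 across control replicates 1 to 3.

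Csf2rb and Csf2rb2 are near-identical copies over part of their length, so their counts are uncertain to that extent. Of the 100-base windows of the GENCODE M21 transcripts of Csf2rb2, 6.82% occur unchanged in transcripts of Csf2rb and 23.4% occur with at most 2 mismatches, and the reads were 100 bases long. Only primary alignments were counted, so a read that aligns to both copies could be assigned to either. With both genes summed the log2 fold change was 0.27 (SE 0.16, edgeR adjusted p = 0.482). No exon of the 10 receptors overlaps an exon of another gene in the annotation used for counting.

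Kit encodes the stem cell factor receptor of stem cells, early progenitors and mast cells, on chromosome 5 (75574987 to 75656721). Its raw counts were 13, 488 and 1 across ccl5 replicates 1 to 3, compared with 6, 6 and 489 across control replicates 1 to 3. In CPM this is 29.8 in ccl5 replicate 2 and 26.9 in control replicate 3, with no other library above 0.926. One library of each label was high and the others were near the floor, so the mean levels were close, at 10.3 ± 16.9 and 9.2 ± 15.3 CPM (SD, n = 3 each). The log2 fold change of 0.16 had an SE of 2.20 (edgeR adjusted p = 0.978) and ran from -4.11 without ccl5 replicate 2 to 4.87 without control replicate 3. The 2 libraries with Kit were also the highest in 27.8% of all tested genes. The summed neutrophil markers were highest in the same libraries, as were Elane, Mpo and Ngp, genes of neutrophil precursors, but not Mmp8. The summed level of 8 mast cell and basophil markers was 36.9 CPM in ccl5 replicate 2 and 38.1 CPM in control replicate 3 and at most 8.05 CPM elsewhere. Hdc, which makes histamine, gave most of that sum, while the mast cell genes Tpsb2, Cma1 and Fcer1a were at 0 in all libraries. The part of either marker list in the Kit levels was not tested.

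Flt3 encodes the FLT3 ligand receptor of lymphoid and dendritic progenitors, also on chromosome 5 (147330742 to 147400489). Its raw counts were 148, 2 and 77 across ccl5 replicates 1 to 3, compared with 0, 1 and 6 across control replicates 1 to 3. The level was 10.5 and 7.01 CPM in ccl5 replicates 1 and 3 and at most 0.33 CPM in the other libraries, of which ccl5 replicate 2 and control replicates 1 and 2 were at or below the floor. With counts above the minimum in only 2 libraries, Flt3 did not pass the filter. Without a filter edgeR gave a log2 fold change of 5.42 (SE 1.67, adjusted p = 0.469), and DESeq2 gave 5.51 (SE 1.56, adjusted p = 0.0382). Without ccl5 replicate 2 Flt3 passed the filter through the 2 libraries where it was high, so its call in that fit is not used as support. These fitted values rest on 7 control reads in all. Kit and Flt3, both progenitor receptors, were thus found in different libraries, Kit in ccl5 replicate 2 and control replicate 3 and Flt3 in ccl5 replicates 1 and 3. Dendritic cell markers summed to 3.06, 1.59 and 3.82 CPM under Ccl5, compared with 1.97, 2.51 and 1.82 CPM under control conditions. Markers of erythroid cells and platelets, led by Pf4, summed to 31.3, 7.63 and 28.9 CPM, compared with 4.25, 5.01 and 10.9 CPM. Stromal and endothelial markers, led by Pecam1, summed to 37.8, 87.9 and 29.1 CPM, compared with 86.8, 99.3 and 90.4 CPM. In both lists ccl5 replicate 2 lay apart from ccl5 replicates 1 and 3.

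**Figure D2:**
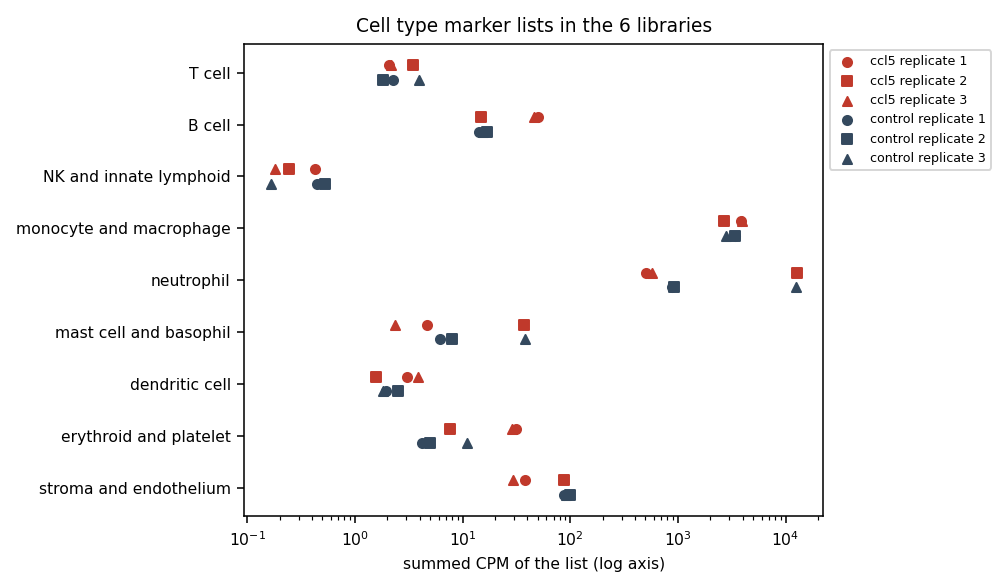
Summed CPM of each list of cell type markers (horizontal log axis) in the ccl5 libraries (red) and control libraries (dark blue), 1 symbol per library. T cell and natural killer lists lie at or below 3.96 CPM in all libraries, and the neutrophil and mast cell lists are highest in ccl5 replicate 2 and control replicate 3.

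**Figure D3:**
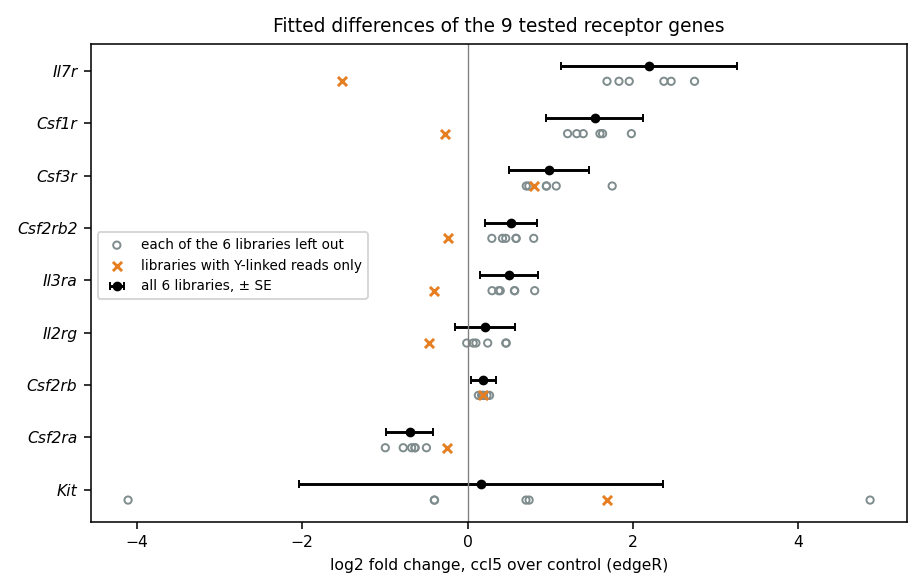
Log2 fold change of ccl5 over control for the 9 tested receptors (black, ± SE, edgeR, 6 libraries), with the values when each library in turn is left out (grey circles) and in the subset of 4 libraries that hold Y-linked reads (orange crosses). Csf2ra lies below 0 throughout, Il7r and Csf1r lie below 0 only at the cross, and Kit spans -4.11 to 4.87.

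The receptors differed in level over a wide range. By median RPKM over the 6 libraries the order was Csf2ra (225 RPKM), Il7r (62.0), Csf2rb (53.2), Csf3r (48.6), Il3ra (40.1), Il2rg (33.8), Csf1r (28.1), Csf2rb2 (15.0), Kit (0.126) and Flt3 (0.0618). Among 18580 genes with at least 1 count, Csf2ra stood at the 98.5th percentile, Csf2rb2 at the 76th and Kit and Flt3 at the 30.1st and 26.6th. The ranges of neighbours in this order overlapped at every step except that from Csf2rb2 to Kit. Csf2rb2 was the eighth receptor and Il3ra the fourth in all 6 libraries, while Il7r ranged from the first place to the seventh.

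The leading receptor differed between libraries. In RPKM, Csf2ra led in ccl5 replicate 2 and in all 3 controls, where it made up 51.2% to 54.4% of the summed receptor RPKM. In ccl5 replicates 1 and 3 Il7r led with 36.2% and 44.1%, and Csf2ra held 18.5% and 14.3%. The summed receptor level was 798, 431 and 799 RPKM across ccl5 replicates 1 to 3, compared with 524, 523 and 438 RPKM across control replicates 1 to 3. Csf1r exceeded Csf3r per length in ccl5 replicates 1 and 3 and in control replicates 1 and 2 (ratios 1.66 to 1.82), and was below it in ccl5 replicate 2 (0.444) and control replicate 3 (0.404).

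**Figure D4:**
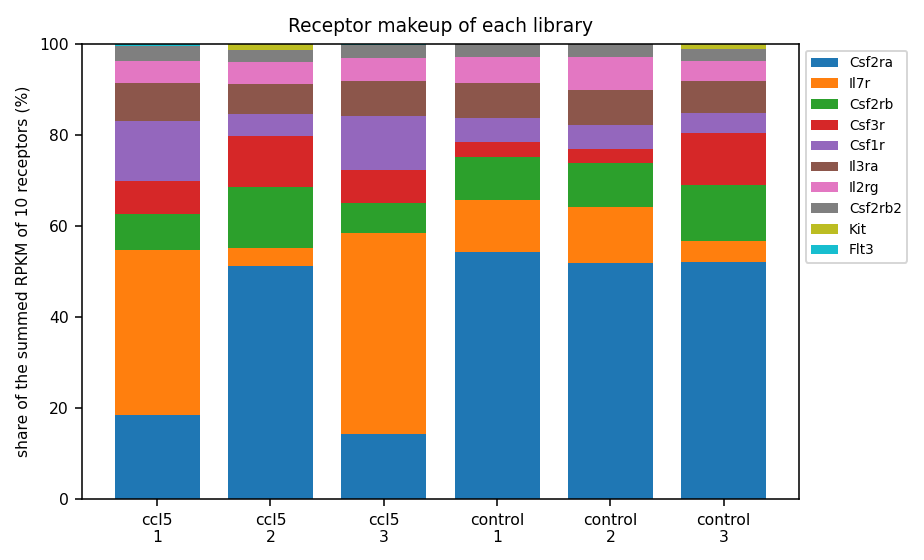
Share of each receptor in the summed RPKM of the 10 receptors (vertical axis, percent, from 0) for each library. Csf2ra takes over 51% of 4 libraries, and Il7r takes 36.2% and 44.1% of ccl5 replicates 1 and 3.

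Across libraries the receptors followed a few layouts. Of the 9 tested receptors, ccl5 replicates 1 and 3 were the 2 highest libraries for 6 (Il7r, Il2rg, Csf1r, Csf2rb2, Csf3r and Il3ra), against 30.8% of all tested genes, and the 2 lowest for Csf2ra, against 30.3%. Control replicates 1 and 2 were the 2 highest for Csf2ra, against 21.4%. ccl5 replicate 2 and control replicate 3 were the 2 lowest for 5 receptors (Il7r, Il2rg, Csf1r, Csf2rb2 and Il3ra), against 28.3% of all tested genes. Control replicates 1 and 2 were the 2 lowest for Csf3r and Csf2rb, against 19.7%. These pairs of libraries were picked after the likeness between libraries was seen, so the counts are a description.

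The tested genes nearest in pattern were taken by the root mean square difference of log2 CPM, centred on each gene's mean, over the 6 libraries. They were picked from 10359 candidate genes, and the libraries fall into close pairs, so small differences are easily found. Shared regulation was not tested. Nearest to Il7r were Fth1, the ferritin heavy chain (0.14), Hmox1, haem oxygenase (0.16), and Ankrd55 (0.16), beside a range of 4.39 in Il7r itself. Hmox1 measured 3339, 181 and 3150 CPM under Ccl5, compared with 621, 599 and 169 CPM under control conditions. Nearest to Csf1r were Slc6a6, the taurine transporter (0.04), Nck2 (0.06) and Ptgfrn (0.06), beside a range of 2.38 in Csf1r itself. Nearest to Csf3r were Cebpa, the myeloid transcription factor C/EBP alpha (0.08), Ctdsp2 (0.09) and Slc36a4 (0.11), beside a range of 1.88 in Csf3r itself. Nearest to Flt3 were Spire2 (0.39), Rgl1 (0.40) and Slamf7 (0.41), beside a range of 6.39 in Flt3 itself.

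Few ligands of these receptors passed the filter on low counts in the leukemia libraries. Of 15 ligand genes 3 were tested and 0 passed, 1 with a higher and 2 with a lower fold change and a median of -0.10. The median was -0.71 over 5 tested ligands without ccl5 replicate 2, where Kitl alone was called (higher, let through the filter by ccl5 replicates 1 and 3), and 0.78 without control replicate 3. Il7, Il2, Il9, Il21, Il3 and Il5 had no read in any library, and Csf2 had 1 read in all. Csf1, the M-CSF gene, measured 8.97, 42.5 and 7.92 CPM under Ccl5, compared with 12.2, 11.2 and 40.5 CPM under control conditions. It was high in the 2 libraries where its receptor Csf1r was lowest. In control replicates 1 and 2 Csf1 was low although Csf1r, at 111 and 107 CPM, was low as well. Flt3l measured 9.47, 13.9 and 9.28 CPM, compared with 14.5, 13.5 and 18.04 CPM (log2 fold change -0.49, SE 0.26), and Il15 had a log2 fold change of 0.32 (SE 0.26). Tslp, a ligand that uses Il7r together with Crlf2 and is named here after its values were seen, measured 5.19 CPM in ccl5 replicate 2 and 5.78 CPM in control replicate 3 and at most 0.634 CPM elsewhere.

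Other cytokine receptors that signal through JAK kinases were given for comparison. Of 22 such genes 14 were tested and 0 passed, 12 with a higher and 2 with a lower fold change and a median log2 fold change of 0.81. Over all 22 genes, with no filter, the median was 0.27. With ccl5 replicate 2 left out edgeR called 10 of 15 (9 higher, 1 lower), against 26.2% of all genes in that fit. Il10rb, a chain of the interleukin 10 receptor, measured 335, 88.4 and 352 CPM under Ccl5, compared with 74.4, 71.5 and 94.3 CPM under control conditions. Il10ra, the other chain, measured 77.1, 14.7 and 81.1 CPM, compared with 15.3, 13.8 and 18.3 CPM. Il6st, the gp130 chain of the interleukin 6 family, measured 225, 42.5 and 217 CPM, compared with 45.5, 47.2 and 48.5 CPM. In each of these 3 genes ccl5 replicates 1 and 3 were high and ccl5 replicate 2 lay among the controls or next to them. Among libraries with Y-linked reads the list's median was -0.11. Il21r was the only tested gene of the list whose groups did not overlap, at 10.8, 28.5 and 7.46 CPM, compared with 31.6, 32.6 and 31.8 CPM. On that lower side the share of all tested genes was 7.49%. Crlf2, the partner of Il7r for Tslp, had a log2 fold change of 0.46 (SE 0.26).

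All 11 JAK and STAT genes were tested and 0 passed, with 7 higher, 4 lower and a median log2 fold change of 0.37. Leaving out ccl5 replicate 2 gave 3 calls, all higher (Jak1, Jak2 and Stat5b), against 26.2% of all genes in that fit. Leaving out control replicate 3 gave 1, Stat4, against 1.88%. Stat4, a factor known from interleukin 12 signalling, measured 14.1, 16.6 and 14.6 CPM under Ccl5, compared with 62.8, 63.5 and 22.3 CPM under control conditions. Its log2 fold change was -1.71 (SE 0.42, edgeR adjusted p = 0.365), and DESeq2 called it. Stat5b and Stat5a encode the factors that most of the receptors here activate. Stat5b measured 174, 109 and 164 CPM, compared with 63.7, 59.1 and 99.5 CPM (log2 fold change 1.01, SE 0.29), and Stat5a measured 49.8, 39.9 and 46.7 CPM, compared with 25.6, 24.7 and 37.5 CPM (0.63, SE 0.22). Every ccl5 library was above every control library for both, with ccl5 replicate 2 and control replicate 3 nearest to each other. In all, groups did not overlap for 4 genes of the list on the higher side, against 8.27% of all tested genes, and for 1 on the lower side, against 7.49%.

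**Figure D5:**
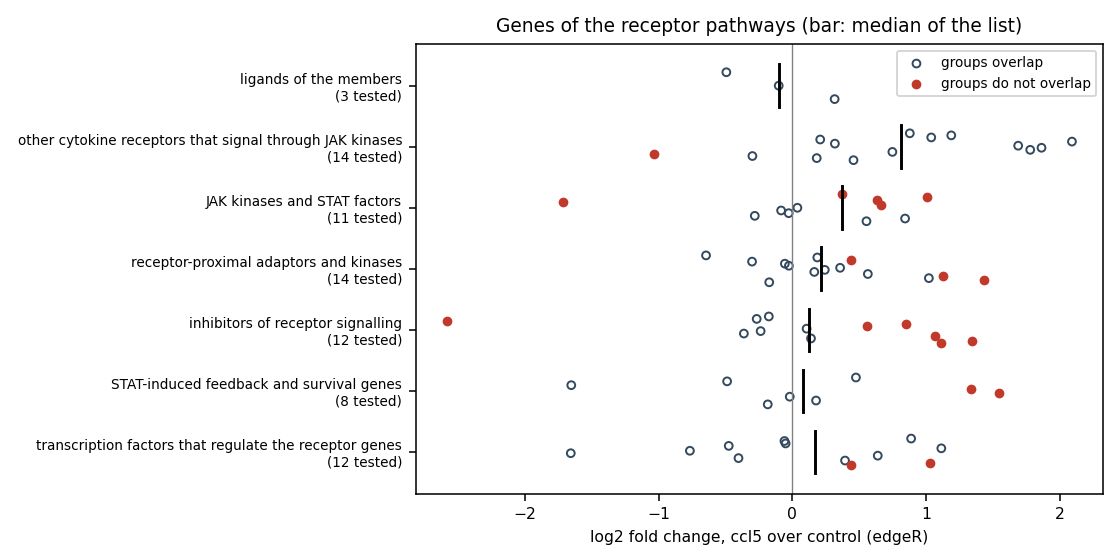
Log2 fold change of ccl5 over control (edgeR, horizontal axis) of the tested genes of 7 lists around the receptors, 1 point per gene, filled where the 3 ccl5 and 3 control libraries do not overlap, with a bar at each list's median. The medians lie between -0.10 and 0.81, and no gene passed the test with all 6 libraries.

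Adaptors and kinases next to the receptors were all tested (14 genes, 0 passed, 9 higher and 5 lower, median log2 fold change 0.22). With ccl5 replicate 2 left out 5 were called (4 higher, 1 lower), among them Grb2 and Gab2, against 26.2% of all genes in that fit. Without control replicate 3 the median was 0.33. Grb2, which links receptors to Ras, measured 439, 138 and 419 CPM under Ccl5, compared with 122, 117 and 130 CPM under control conditions. Gab2, a docking protein, measured 132, 51.1 and 134 CPM, compared with 50.5, 45.7 and 49.1 CPM. In Grb2 and Gab2 the groups were apart by a small step at ccl5 replicate 2 and by a wide one in the other ccl5 libraries. Groups did not overlap on the higher side for 8.27% of all tested genes.

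Inhibitors of receptor signalling were also all tested (12 genes, 0 passed, 7 higher and 5 lower, median 0.12). With ccl5 replicate 2 left out 8 were called (5 higher, 3 lower), among them Dok2, Ptpn1 and Cblb, against 26.2% of all genes in that fit. Without control replicate 3 the median was 0.33 with 0 called, against 1.88% of all genes. Dok2, an inhibitory docking protein of myeloid cells, measured 10.8, 19.7 and 7.92 CPM under Ccl5, compared with 111, 99.0 and 20.7 CPM under control conditions, so that control replicate 3 lay close to ccl5 replicate 2. Its log2 fold change was -2.58 (SE 0.70, edgeR adjusted p = 0.365), and DESeq2 called it. Ptpn1, a phosphatase, measured 256, 128 and 237 CPM, compared with 88.9, 88.6 and 119 CPM. Cblb, a ubiquitin ligase that retires receptors, measured 33.8, 15.6 and 33.7 CPM, compared with 8.88, 9.22 and 14.6 CPM. For both genes every ccl5 library was above every control library, as for 8.27% of all tested genes.

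Of 8 feedback and survival genes that STAT factors induce, 0 passed, 4 were higher and 4 lower, and the median was 0.08. The median was -0.08 without ccl5 replicate 2, where Socs3 was called, against 26.2% of all genes. It was 0.34 without control replicate 3, where Pim1 (higher) and Osm (lower) were called, against 1.88% of all genes. Socs3, the inhibitor of G-CSF and gp130 receptors, measured 61.0, 17.4 and 53.9 CPM under Ccl5, compared with 14.5, 13.5 and 17.3 CPM under control conditions. Pim1, a survival kinase, measured 197, 119 and 176 CPM, compared with 40.9, 42.1 and 112 CPM. Osm measured 11.8, 9.16 and 9.65 CPM, compared with 45.1, 43.3 and 7.98 CPM, so control replicate 3 was the lowest library. Of 12 transcription factors known to regulate these receptor genes, 0 passed, 6 were higher and 6 lower, and the median was 0.17. Leaving out ccl5 replicate 2 gave 5 calls (2 higher, Sfpi1 and Foxo1, and 3 lower, Cebpe, Myb and Gfi1), against 26.2% of all genes. Leaving out control replicate 3 gave 1, Cebpa, against 1.88% of all genes, and a median of 0.52. Foxo1, an activator of Il7r in lymphocytes, measured 17.8, 6.53 and 18.8 CPM, compared with 6.98, 6.82 and 6.11 CPM. For Sfpi1, which encodes PU.1, and for Cebpa the log2 fold changes were 0.44 (SE 0.19) and 1.03 (SE 0.45). Their groups did not overlap, as for 8.27% of all tested genes on the higher side, but only by a narrow margin. Sfpi1 measured 196 CPM in ccl5 replicate 2 and 193 CPM in control replicate 3, and Cebpa measured 253 and 247 CPM there. Gfi1 and Ets1, named here after their values were seen, were high where Kit was: Gfi1 measured 240 and 231 CPM in ccl5 replicate 2 and control replicate 3 and at most 57.6 CPM elsewhere, and Ets1 measured 113 and 106 CPM there and at most 13.1 CPM elsewhere.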

How the data were processed

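Expression was measured by sequencing of poly(A)-selected RNA in 6 libraries (single-end reads of 100 bases, per the labels' protocols). The deposited table holds raw counts per gene, made with featureCounts 1.5.1 on primary alignments and the UCSC mm10 annotation per the file headers. No strand option was set. It also holds gene lengths, an other value of the authors' table used here for RPKM. Trimmomatic, Bowtie, TopHat and DESeq2 are named per the submitters' processing notes, and their settings are not given in the sources used here.

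Table columns were matched to samples by the letter that ends each title, and groups came from the treatment labels. Counts were scaled by TMM, filtered with filterByExpr (minimum count 10) and tested over all genes with edgeR 4.0.16 in R 4.3.3 (quasi-likelihood F test, two-sided, Benjamini-Hochberg adjustment, threshold 0.05). Standard errors (SE) were derived from the fitted log2 fold change and the F statistic, its size over the root of F. The code was tested on simulated data. Alternatives were DESeq2 1.42.0 size factors and Wald test, limma-voom 3.58.1 with quality weights, no filter, a stricter filter (CPM over 1 in 3 libraries), a threshold of 0.1, each library left out, primary transplants only, libraries with Y-linked reads only, and Csf2rb and Csf2rb2 summed.

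The receptors, the 7 pathway lists, the 9 marker lists and the split by Y-linked reads were chosen with earlier results of these data known. Of 181 listed symbols 1 was not in the file. The rule named all receptors, up to 3 tested genes with the smallest p per pathway list and any single gene there whose groups did not overlap, markers at 0 and the highest marker per list, and the 3 genes nearest in pattern (prior count 2, mean log2 CPM at least 1, no predicted gene) to Il7r, Csf1r, Csf3r and Flt3. Mmp8, other markers, Crlf2, genes called with a library left out, Gfi1, Ets1 and Tslp were named after their values were seen. Some listed genes are not reported here.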

Additional observations from a re-analysis of the deposited data

How the results depend on the processing

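The count of 0 called genes, 0 called receptors and 0 called pathway genes was kept with DESeq2 size factors, without a filter, with the stricter filter, and with Csf2rb and Csf2rb2 summed. The threshold of 0.1 could add no call, because it reuses the main edgeR fit, whose smallest adjusted p was 0.365. Fits to primary transplant or Y-linked libraries only leave 1 control or 1 treated library, so they cannot decide whether the count is kept. DESeq2's Wald test called 199 genes, 1 receptor and 2 pathway genes, and limma-voom with quality weights called 8097, 7 and 60. With each library left out in turn the counts ranged from 0 to 3299 genes, 0 to 6 receptors and 0 to 33 pathway genes, and were above 0 only without ccl5 replicate 2 (3299, 6 and 33, with Flt3 and Kitl let through the filter by the libraries where they were high) and without control replicate 3 (237, 1 and 4). The sign turned among libraries with Y-linked reads for Il7r (-1.52), Il2rg (-0.46), Csf1r (-0.27), Csf2rb2 (-0.24) and Il3ra (-0.40), a fit with 1 treated library. With each library left out, Il2rg ranged from -0.0107 (without control replicate 3, where its sign turned) to 0.47. Kit ranged from -4.11 (without ccl5 replicate 2) to 4.87 (without control replicate 3), was -0.40 without control replicate 1 and -0.40 without control replicate 2, and was -0.85 with primary transplants only. Csf2ra, Csf2rb and Csf3r kept their sign in all alternatives run, of which the threshold of 0.1 reuses the main fit and cannot turn a sign. The median RPKM over the receptors and libraries was 30.2, and 32.9 with plain library totals. The cause of these changes was not tested. Depth limits Flt3 and Kit, which are near the floor of 3 counts in most libraries. No paired analysis was possible because the labels give the ccl5 libraries no replicate number shared with a control library, and the source name neo10 that ccl5 replicates 2 and 3 share with control replicate 3 leaves 1 control. That subset is the fit to primary transplants.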
